A study of Rattus norvegicus with 6 samples.

Results

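The miR-181 family comprises mature miRNAs cut from the precursors miR-181a, miR-181b, miR-181c and miR-181d. Its members were taken by name from the deposited count table, with either strand and any copy suffix, which gave 10 of the 650 listed miRNAs. These are 4 strands from the 5′ arm of the precursor (5p), named rno-miR-181a-5p, rno-miR-181b-5p, rno-miR-181c-5p and rno-miR-181d-5p, and 6 from the 3′ arm (3p). The rat prefix rno- is left out from here on. They were measured by small RNA sequencing in the trigeminal ganglion, the seat of the sensory neurons that innervate the face. Ganglia came from the operated side of Sprague-Dawley rats aged 8 to 10 weeks, on day 14 after surgery. In the CCI-ION group (chronic constriction injury of the infraorbital nerve, 3 libraries), loose silk ligatures were tied around the left nerve, a model of trigeminal neuropathic pain. In the sham group (3 libraries) the nerve was exposed on the same side without ligation. Both groups thus shared the anaesthesia and the dissection of the nerve, and unoperated animals were not analysed here.

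A miRNA guides Argonaute proteins to messenger RNAs that pair with its seed, bases 2 to 8 from the 5′ end, and lowers their translation and stability. Of the 2 strands of a precursor, usually one is kept and the other, the passenger strand, is degraded. In mice, miR-181a raises the sensitivity of developing T cells to antigen by repressing phosphatases of T-cell receptor signalling, and miR-181 members also act on survival proteins in brain cells after ischaemia. In rat heart cells, miR-181c-5p has been found in mitochondria, where it acts on a mitochondrial transcript.

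The sequences of the 4 members from the 5′ arm are shown because they define the family and show how little separates its members, with the seed in capitals:
miR-181a-5p: aACATTCAacgctgtcggtgagt
miR-181b-5p: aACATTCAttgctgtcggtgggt
miR-181c-5p: aACATTCAacctgtcggtgagt
miR-181d-5p: aACATTCAttgttgtcggtgggt
All 4 carry the seed ACATTCA, and no miRNA outside the family among the 650 shares it. Counting from 1 at the 5′ end, miR-181b-5p and miR-181d-5p differ by the single substitution C12T. miR-181c-5p equals miR-181a-5p with the G at position 11 left out. miR-181a-5p and miR-181b-5p differ by A9T, C10T and A21G, all outside the seed. A read with an error at position 12 could therefore pass between miR-181b-5p and miR-181d-5p. Between miR-181a-5p and miR-181c-5p a read would have to lose or gain the base at position 11. The sources used here do not say how the authors assigned such reads. Those members' separate values are uncertain for that reason. No listed miRNA outside the family came within 2 substitutions of a member over at least 19 bases.

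The strands from the 3′ arm share no seed with the 5p strands. Those with enough counts to test were:
miR-181a-1-3p: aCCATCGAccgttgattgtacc
miR-181c-3p: aCCATCGAccgttgagtggacc
miR-181b-1-3p: cTCACTGAacaatgaatgcaa
The seed, in capitals, is the same in miR-181a-1-3p and miR-181c-3p, which differ by T16G and T19G and are uncertain likewise. miR-181b-1-3p differs from miR-181b-2-3p by A8G and A9T.

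RefSeq (assembly GRCr8, not the build of the files) holds 6 loci of the family in 3 neighbouring couples. Mir181a-1 lies beside Mir181b1 on chromosome 13, Mir181a2 beside Mir181b2 on chromosome 3, and Mir181c beside Mir181d on chromosome 19. The mature sequence was identical in RefSeq for 9 of the 10 members, and miR-181b-2-3p had no mature entry. miR-181a-5p has the same sequence at both of its loci, so its counts are a sum over chromosomes 13 and 3, and the miR-181b-5p sequence likewise stands in the Mir181b1 and Mir181b2 entries. The 3p strands differ between these loci. The precursor of miR-181c is shown because both of its strands were counted at similar levels, with miR-181c-5p and then miR-181c-3p in capitals:
Mir181c: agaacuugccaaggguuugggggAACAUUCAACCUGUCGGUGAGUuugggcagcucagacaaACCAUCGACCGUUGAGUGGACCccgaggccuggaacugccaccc

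Total miRNA counts ranged from 6420434 to 11014970 in the CCI-ION libraries and from 10084327 to 12560545 in the sham libraries. The labelled tissue could be checked against miRNAs known from sensory neurons: miR-183-5p, miR-96-5p and miR-182 together held 3.65% to 4.41% of miRNA counts in CCI-ION libraries and 3.72% to 4.41% in sham libraries. The libraries numbered 1 stood apart from the others. They had the largest totals behind the deposited RPM, 24259518 in CCI-ION library 1 and 24025572 in sham library 1, against 13793797 to 15228984 in the other 4, and values without them are given where they matter. Same-numbered libraries deviated together from their group means, so a model of group alone was set beside one that adds the replicate number as a block (edgeR's quasi-likelihood test in both cases, with a call at a Benjamini-Hochberg adjusted p under 0.05 over all 463 tested miRNAs).

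The family was a minor but well measured part of the ganglion's miRNAs. It held 1.01%, 0.561% and 0.594% of all miRNA counts in CCI-ION libraries 1 to 3, and 0.849%, 0.583% and 0.688% in sham libraries 1 to 3. In both groups library 1 was the highest, and the groups overlapped. The means were 0.721% ± 0.250 in CCI-ION and 0.707% ± 0.134 in sham (SD, n = 3 each). Wilson 95% intervals for single libraries were narrower than these differences between libraries, at 1.003% to 1.015% for CCI-ION library 1, and they cover counting error only.

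miR-181a-5p, the main member, was the 31st most abundant miRNA in sham ganglia. Levels are given as CPM, the count over the library's miRNA total after TMM scaling. Mature miRNAs are counted whole and have nearly the same length, so levels were set side by side without a length correction. miR-181a-5p had 6973, 4180 and 4426 CPM in CCI-ION libraries 1 to 3, and 5702, 4312 and 5243 CPM in sham libraries 1 to 3. CCI-ION held both the highest and the lowest of the 6 values. The means were 5193 ± 1546 CPM in CCI-ION and 5086 ± 708 CPM in sham (SD, n = 3 each). The log2 fold change of CCI-ION over sham was 0.03 ± 0.22 (SE), a fold of 1.02 with a 95% interval of 0.709 to 1.47, and it was not called (edgeR adjusted p = 0.993). With the replicate block the fold was 1.00 with an interval of 0.869 to 1.152 (edgeR adjusted p = 0.999).

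miR-181b-5p, whose loci neighbour those of miR-181a, stood below that level in 6 of 6 libraries, with a mean CPM 3.98 times lower. It had 1763, 1046 and 1142 CPM in CCI-ION libraries 1 to 3, and 1527, 1125 and 1144 CPM in sham libraries 1 to 3. The groups overlapped, and library 1 was again the highest in each. CCI-ION over sham gave a log2 fold change of 0.06 ± 0.24, with a 95% interval for the fold of 0.710 to 1.53 (edgeR adjusted p = 0.980). The block gave 0.03 ± 0.10 (0.887 to 1.18, edgeR adjusted p = 0.883).

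In the couple on chromosome 19, miR-181d-5p had more counts than miR-181c-5p in 6 of 6 libraries, and both lay below miR-181a-5p and miR-181b-5p. miR-181d-5p had 691, 440.1 and 456.4 CPM in CCI-ION libraries 1 to 3, and 615.8, 438.1 and 434.1 CPM in sham libraries 1 to 3. It was higher in CCI-ION in 3 of 3 couples of same-numbered libraries, but by little beside the spread within groups. The log2 fold change was 0.09 ± 0.23 (fold interval 0.729 to 1.56, edgeR adjusted p = 0.947), and 0.08 ± 0.10 with the block (0.915 to 1.22, edgeR adjusted p = 0.707).

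miR-181c-5p was much scarcer than the other 5p strands. It had 71.2, 50.4 and 49.8 CPM in CCI-ION libraries 1 to 3, and 73.8, 56.3 and 54.9 CPM in sham libraries 1 to 3. It was lower in CCI-ION in 3 of 3 same-numbered couples, while the groups overlapped because CCI-ION library 1 lay within the sham range. The log2 fold change was -0.11 ± 0.21 (fold interval 0.661 to 1.30, edgeR adjusted p = 0.947), and -0.12 ± 0.13 with the block (0.773 to 1.101, edgeR adjusted p = 0.643).

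**Figure D1:**
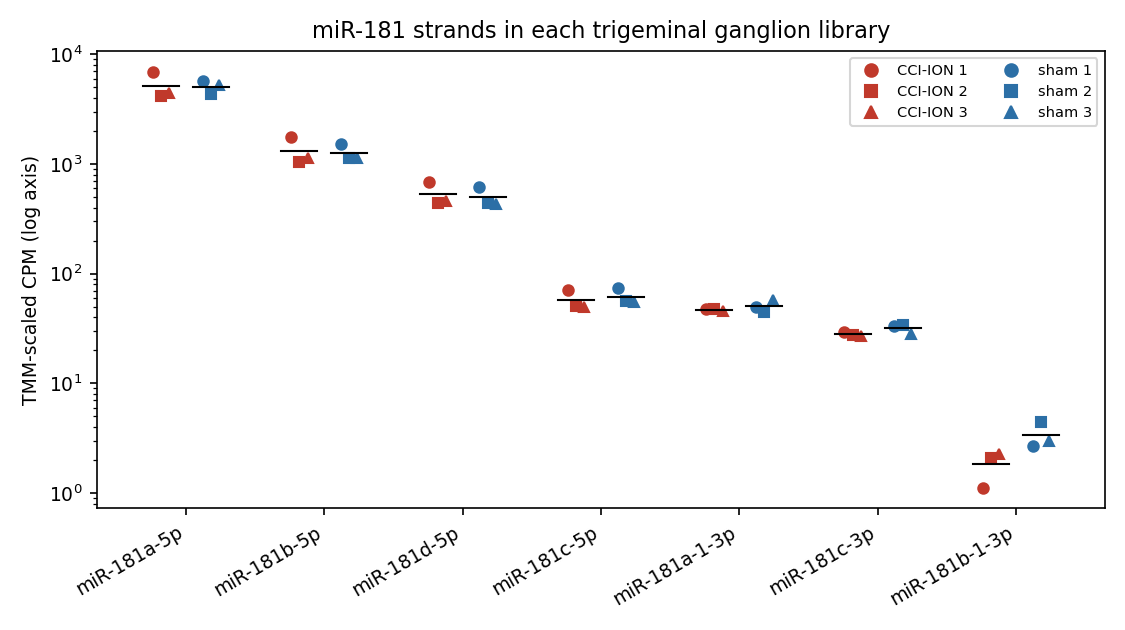
TMM-scaled CPM (log axis) of the 7 tested miR-181 strands in each library, CCI-ION in red and sham in blue, with the library number as the marker and the group mean as a line (n = 3 each). The strands span from 6973 CPM for miR-181a-5p in CCI-ION library 1 to 1.12 CPM for miR-181b-1-3p in the same library, and the groups were separated without overlap for miR-181b-1-3p alone.

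The passenger strands miR-181a-1-3p and miR-181c-3p varied less between libraries than miR-181a-5p and miR-181c-5p. miR-181a-1-3p, from the chromosome 13 locus, had 48.0, 47.9 and 45.5 CPM in CCI-ION libraries 1 to 3, and 49.7, 45.0 and 57.5 CPM in sham libraries 1 to 3. Sham libraries 1 and 3 lay above the CCI-ION range and sham library 2 just below it. Its log2 fold change was -0.11 ± 0.15 (fold interval 0.726 to 1.19, edgeR adjusted p = 0.936), and -0.10 ± 0.14 with the block (0.774 to 1.13, edgeR adjusted p = 0.722). miR-181c-3p had 29.6, 27.8 and 27.3 CPM in CCI-ION libraries 1 to 3, and 33.6, 33.8 and 28.3 CPM in sham libraries 1 to 3. It was lower in CCI-ION in 3 of 3 same-numbered couples, and sham library 3 lay inside the CCI-ION range. Its log2 fold change was -0.18 ± 0.15 (fold interval 0.696 to 1.13, edgeR adjusted p = 0.884), and -0.17 ± 0.15 with the block (0.719 to 1.096, edgeR adjusted p = 0.550).

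miR-181b-1-3p, the passenger strand of the chromosome 13 copy of miR-181b, was the one member whose groups did not overlap on the CPM scale. It was covered by 13, 13 and 17 reads in CCI-ION libraries 1 to 3, and by 36, 44 and 30 reads in sham libraries 1 to 3. This came to 1.12, 2.09 and 2.29 CPM in CCI-ION, and to 2.70, 4.48 and 3.01 CPM in sham. Every CCI-ION value was below every sham value, and the means were 1.833 ± 0.625 CPM in CCI-ION and 3.398 ± 0.948 CPM in sham (SD, n = 3 each). Among all 463 tested miRNAs, 13.8% had groups without overlap, and 7.13% had them with CCI-ION lower. The log2 fold change was -0.92 ± 0.37 (fold 0.530, 95% interval 0.292 to 0.961), with an unadjusted p of 0.0395 and an edgeR adjusted p of 0.482. With the replicate block it was -0.91 ± 0.33, and the edgeR adjusted p of 0.0581 also missed the threshold (0.0644 with limma-voom and 0.452 with DESeq2, both with the block). The value ranged from -1.11 without CCI-ION library 3 to -0.62 without CCI-ION library 1. The difference was therefore not called at this depth.

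The 3 remaining strands did not pass the filter on low counts. miR-181a-2-3p, from the chromosome 3 locus, had 8, 6 and 1 reads in CCI-ION libraries 1 to 3, and 7, 4 and 12 reads in sham libraries 1 to 3. miR-181b-2-3p, from the same couple, had 3, 2 and 0 reads in CCI-ION and 1, 1 and 3 reads in sham. miR-181d-3p had 1, 1 and 0 reads in CCI-ION and 1, 0 and 0 reads in sham. For scale, 3 counts over the miRNA total without TMM scaling equal 0.272 to 0.467 CPM in CCI-ION libraries. In sham libraries they equal 0.239 to 0.298 CPM. This level was not the threshold of the filter. At 3 reads or fewer per library, no difference in miR-181b-2-3p or miR-181d-3p could be judged.

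Across the family, edgeR called 0 of the 7 tested members on group alone, where it called 0.648% of all tested miRNAs. It called 0 of 7 with the replicate block, where it called 11.7%. DESeq2 and limma-voom also called 0 members in both designs, and 1 member, miR-181b-1-3p, had an unadjusted edgeR p under 0.05, against 9.94% of all tested miRNAs. Of the 7 log2 fold changes 3 were positive and 4 negative, with a median of -0.11 beside 0.01 over all tested miRNAs. The intervals for the 4 members of the 5′ arm allowed folds from 0.661 to 1.56 on group alone, and from 0.773 to 1.22 with the block.

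**Figure D2:**
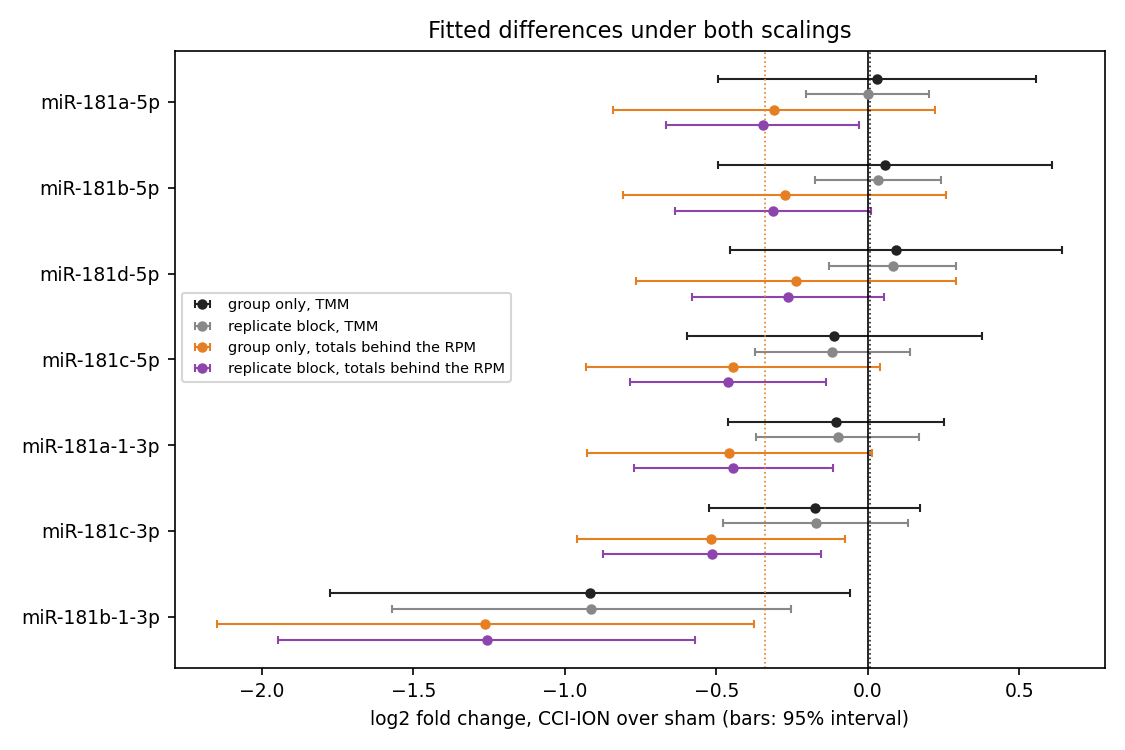
Fitted log2 fold change of CCI-ION over sham with its 95% interval for the 7 tested strands, from edgeR on group alone and with the replicate block, each with TMM factors and with libraries scaled to the totals behind the RPM. Dotted lines mark the median of all tested miRNAs on group alone (0.01 with TMM factors, -0.34 with RPM totals): the 5p strands and the a and c passenger strands lie around the median of their own scale, and miR-181b-1-3p lies below it.

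The level depended on what the counts were related to. The authors' RPM values relate each count to a larger library total, of which miRNA counts made up 45.4%, 45.8% and 55.8% in CCI-ION libraries 1 to 3, and 52.3%, 66.6% and 66.6% in sham libraries 1 to 3. On that scale miR-181a-5p stood at 3334, 1855 and 2385 RPM in CCI-ION, and at 3160, 2782 and 3449 RPM in sham, with overlap. The same held for miR-181b-5p (640.9 ± 190.7 RPM in CCI-ION and 774.7 ± 63.4 in sham) and miR-181d-5p (257.2 ± 68.3 and 303.1 ± 33.1, SD, n = 3 each). In RPM miR-181d-5p was higher in CCI-ION in 0 of 3 same-numbered couples, against 3 of 3 in CPM.

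For 4 members the groups did not overlap in RPM, all lower in CCI-ION. miR-181c-5p had 34.1, 22.3 and 26.8 RPM in CCI-ION libraries 1 to 3, and 40.9, 36.3 and 36.1 RPM in sham libraries 1 to 3. miR-181c-3p had 14.1, 12.4 and 14.7 RPM in CCI-ION, and 18.6, 21.8 and 18.6 RPM in sham. Both strands of miR-181c were thus below the whole sham range in every CCI-ION library. miR-181a-1-3p had 23.0, 21.3 and 24.5 RPM in CCI-ION and 27.5, 29.0 and 37.8 RPM in sham, and miR-181b-1-3p had 0.536, 0.928 and 1.232 RPM in CCI-ION and 1.498, 2.889 and 1.981 RPM in sham. The two-sided exact permutation p was 0.1 for each of these 4, the smallest that 3 libraries against 3 allow. Groups without overlap and lower in CCI-ION were common on this scale, at 29.4% of the 463 tested miRNAs, whose median log2 fold change was -0.34.

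With libraries scaled to the totals behind the RPM and no block, edgeR called 0 of the 7 members (1.3% of all tested miRNAs were called, and 2 members had an unadjusted p under 0.05, as did 18.4% of all). With the block on that scale these same 4 members were called lower, where 32.8% of all tested miRNAs were called lower. Their log2 fold changes were -0.46 ± 0.16 for miR-181c-5p (edgeR adjusted p = 0.0274), -0.52 ± 0.18 for miR-181c-3p (0.0273), -0.44 ± 0.16 for miR-181a-1-3p (0.0343) and -1.26 ± 0.34 for miR-181b-1-3p (0.00587). Set against the median of all miRNAs on that scale, -0.35, the first 3 moved little more than miRNAs did in general. miR-181a-5p (-0.35 ± 0.16, edgeR adjusted p = 0.0808), miR-181b-5p (-0.31 ± 0.16, 0.119) and miR-181d-5p (-0.26 ± 0.16, 0.184) were not called. These calls rested on the libraries kept. Without both numbered 3, 0 members were called lower, beside 2.36% of all tested miRNAs. In that setting 2 members had an unadjusted edgeR p under 0.05, as did 91 of all 466 tested miRNAs. Without both numbered 2, miR-181a-1-3p alone was called lower (-0.44, edgeR adjusted p = 0.0139), beside 25.4% of all. Without both numbered 1 the same 4 were called lower together with miR-181a-5p (-0.56, edgeR adjusted p = 0.0462), beside 26.9% of all, and the median over all tested miRNAs was -0.43. The settings without these libraries were added after seeing the data.

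The 5p strands varied with the library number in both groups. Relative to the mean of the 6 libraries in log2 CPM, CCI-ION library 1 lay at 0.47 for miR-181a-5p, 0.48 for miR-181b-5p, 0.46 for miR-181d-5p and 0.28 for miR-181c-5p. Sham library 1 lay at 0.18, 0.27, 0.29 and 0.33 for the same 4 strands. All 4 were higher in the libraries numbered 1 than in the other 4 libraries. Among the 3p strands, CCI-ION library 1 lay at -0.02 for both miR-181a-1-3p and miR-181c-3p and at -0.99 for miR-181b-1-3p, and sham library 1 at 0.03, 0.16 and 0.14. In CCI-ION library 1 these 3 passenger strands thus lay below their means, while in sham library 1 miR-181c-3p and miR-181b-1-3p lay above theirs. The libraries numbered 1 differed from the others also in their totals, and the part of depth in this pattern was not tested. Without both libraries numbered 1, the block gave -0.15 for miR-181a-5p, -0.06 for miR-181b-5p, 0.04 for miR-181d-5p and -0.15 for miR-181c-5p on the log2 scale, and no member was called, beside 9.93% of all tested miRNAs.

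**Figure D3:**
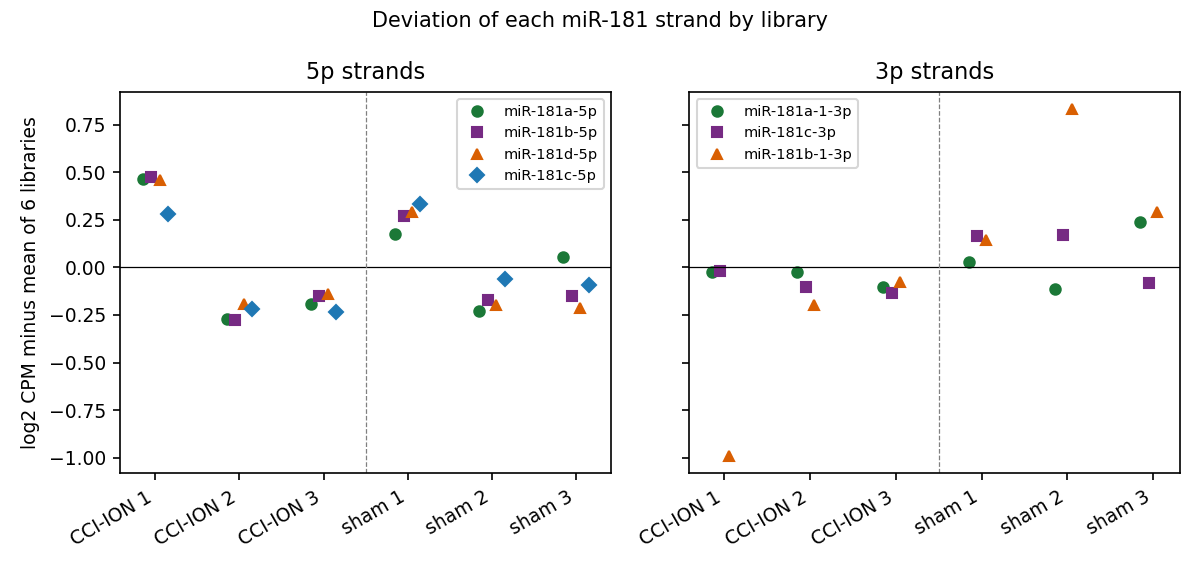
Log2 CPM of each strand minus its mean over the 6 libraries, by library, for 4 strands of the 5′ arm (left) and 3 of the 3′ arm (right), with CCI-ION left of the dashed line and sham right of it. The 5p strands move together in most libraries and are high in both numbered 1 (0.18 to 0.48), and miR-181b-1-3p spreads from -0.99 to 0.83. In sham library 3 miR-181a-5p lies at 0.053, while miR-181b-5p, miR-181d-5p and miR-181c-5p lie at -0.148, -0.213 and -0.095.

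Ratios within a library do not depend on its scaling and show how the counts of the strands compare. Whether different strands are sequenced equally well was not tested. miR-181a-5p exceeded its passenger strand miR-181a-1-3p 145-fold, 87.2-fold and 97.3-fold in CCI-ION libraries 1 to 3, and 115-fold, 95.9-fold and 91.2-fold in sham libraries 1 to 3. Because miR-181a-5p also comes from the chromosome 3 locus, this ratio overstates the imbalance at the chromosome 13 locus by an unknown amount. miR-181c was far more even, with miR-181c-5p over miR-181c-3p at 2.41, 1.81 and 1.82 in CCI-ION, and at 2.20, 1.67 and 1.94 in sham. The order of the strands was therefore the same in 6 of 6 libraries for both precursors, while the ratio differed between these precursors 47.0-fold to 60.3-fold within a library.

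None of 6 such ratios was separated between the groups. The ratio of miR-181b-5p over miR-181b-1-3p came to 1573, 500.2 and 499.5 in CCI-ION, and to 564.7, 251.1 and 379.7 in sham, and was higher in CCI-ION in 3 of 3 same-numbered couples. The groups overlapped through sham library 1 (two-sided exact permutation p = 0.3, 0.8 adjusted over 6 ratios). Because the miR-181b-5p sequence also stands at the chromosome 3 locus, this ratio can mix loci as that of miR-181a-5p over miR-181a-1-3p does. Its denominator rests on 13 to 44 reads. miR-181d-5p over miR-181b-5p was the steadiest ratio, at 0.392, 0.421 and 0.400 in CCI-ION, and at 0.403, 0.390 and 0.380 in sham (exact permutation p = 0.4, 0.8 adjusted). These strands come from different chromosomes and differ by 1 base, so reads passing from one to the other could also hold the ratio steady, which was not tested. miR-181c-5p over miR-181a-5p was 0.0112 ± 0.0009 in CCI-ION and 0.0122 ± 0.0015 in sham (SD, n = 3 each, exact permutation p = 0.3, 0.8 adjusted). The other 3 ratios had exact permutation p-values of 0.7 to 0.9.

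**Figure D4:**
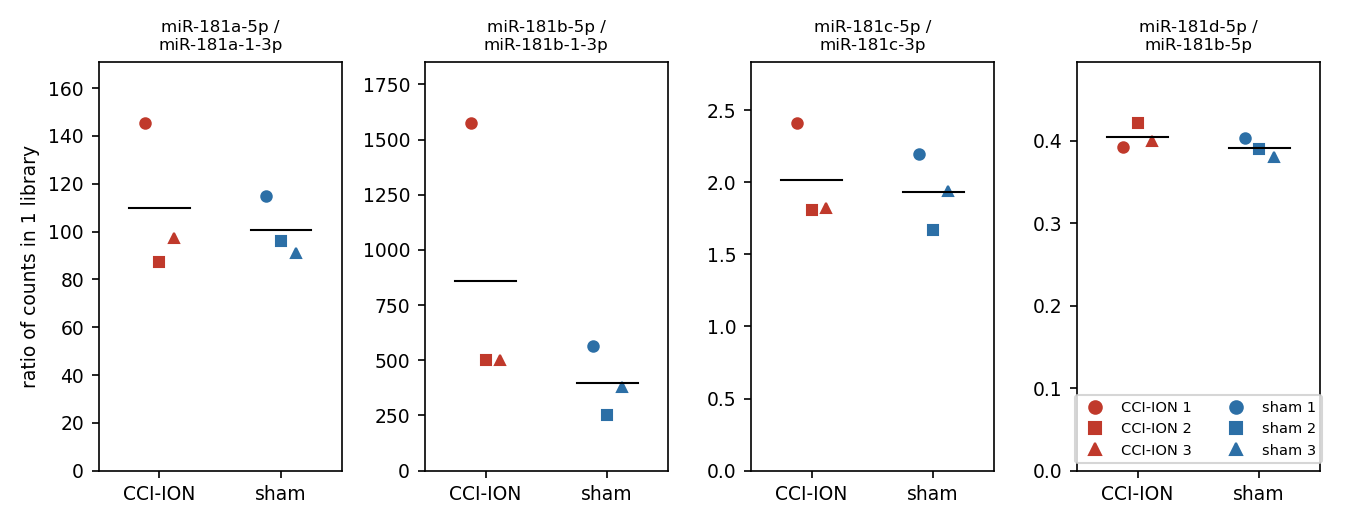
Ratio of counts of 2 miR-181 strands within each library, for 4 of the 6 ratios, with CCI-ION in red and sham in blue, the library number as the marker and the group mean as a line (n = 3 each, linear axes from 0). The miR-181c strands differ by 1.67-fold to 2.41-fold and the miR-181a strands by 87.2-fold to 145-fold, with overlap between groups in each panel.

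In order of level, miR-181a-5p, miR-181b-5p, miR-181d-5p and miR-181c-5p were followed by miR-181a-1-3p, miR-181c-3p and miR-181b-1-3p. The ranges of neighbours in this order were separate over the 6 libraries, except that miR-181c-5p and miR-181a-1-3p overlapped, with miR-181c-5p higher in 5 of 6 libraries. miR-181a-5p held 72.3% ± 0.44 of the family's counts in CCI-ION and 72.7% ± 2.21 in sham. miR-181b-5p held 18.3% ± 0.27 and 18.1% ± 1.44, and miR-181d-5p held 7.41% ± 0.19 and 7.07% ± 0.75, in CCI-ION and in sham (SD, n = 3 each). The 6 strands from the 3′ arm together held 1.141% ± 0.277 in CCI-ION and 1.257% ± 0.159 in sham. The make-up of the family thus overlapped between groups for every member.

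Beside the family's own members, the miRNAs outside it whose pattern over the 6 libraries lay nearest to miR-181a-5p, among 169 with a mean of at least 100 CPM, were miR-125b-1-3p, miR-92b-3p and let-7d-3p. Their root-mean-square difference from miR-181a-5p in mean-centred log2 CPM was 0.0868, 0.106 and 0.117, where the median over the 169 was 0.354. miR-181b-5p lay at 0.0954 by the same measure, but miR-181a-1-3p at 0.250. For miR-181c-5p the nearest outside the family were miR-3596c (0.0741), miR-382-5p (0.106) and miR-872-5p (0.110). The other 5p strands lay about as near, with miR-181b-5p at 0.107, miR-181d-5p at 0.113 and miR-181a-5p at 0.138. The passenger strand miR-181c-3p lay at 0.180 from miR-181c-5p. Like miR-181a-5p, miR-125b-1-3p was highest in the libraries numbered 1, with 599.7, 349.5 and 447.9 CPM in CCI-ION libraries 1 to 3, and 513.8, 389.2 and 460.9 CPM in sham libraries 1 to 3.

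Other miRNAs known to tune immune and inflammatory signalling were set beside the family. Of 20 listed and tested, 0 were called by edgeR on group alone, where 3 of all 463 were. Of the same 20, 7 had an unadjusted edgeR p under 0.05, as did 9.94% of all tested miRNAs. DESeq2 called 1 of the list, where it called 9 of all 463, and limma-voom called 0, where it called 3. With the block edgeR called 6 of the list higher in CCI-ION and 2 lower, where 6.05% of all tested miRNAs were called higher and 5.62% lower. The 6 were miR-21-5p (log2 fold change 0.84 ± 0.11), which many tissues raise after injury, miR-142-3p (0.74 ± 0.14), found in blood cells, miR-155-5p (0.63 ± 0.17), a promoter of inflammation in macrophages, miR-146b-5p (0.55 ± 0.10) and miR-146a-5p (0.40 ± 0.10), brakes on NF-kB signalling, and miR-221-3p (0.45 ± 0.11). miR-124-3p, abundant in neurons, was at -0.48 ± 0.11 and miR-34a-5p, which p53 induces, at -0.53 ± 0.11. These calls fell to 0 without both libraries numbered 3, where 1.07% of all were called, and to 3 higher and 1 lower without both numbered 2, where 6.68% were. Without both numbered 1, 7 of the list were called higher and 2 lower, where 9.93% of all were called. The list's median was 0.12 with the block, beside 0.00 over all tested miRNAs.

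Of the markers of neurons, leukocytes, skeletal muscle, myelinating glia and erythroid cells, edgeR on group alone called 0, while DESeq2 called 1 neuronal marker and limma-voom 0. Over all 463 tested miRNAs, edgeR on group alone and limma-voom each called 3, and DESeq2 called 9. An unadjusted edgeR p under 0.05 was held by 2 neuronal, 2 leukocyte and 1 muscle marker, and by 9.94% of all tested miRNAs. With the block some were called, where 6.05% of all tested miRNAs were called higher and 5.62% lower. A list of 6 neuronal miRNAs held 1.79% to 2.09% of miRNA counts in CCI-ION libraries and 2.24% to 2.40% in sham libraries, with 5 of 6 called lower with the block. Of the 3 sensory neuron miRNAs given above, whose shares overlapped between groups, 0 were called with the block. Their log2 fold changes there were -0.145 ± 0.092 (miR-183-5p), -0.196 ± 0.102 (miR-96-5p) and 0.089 ± 0.091 (miR-182). A list of 6 leukocyte miRNAs held 0.0341% to 0.0402% in CCI-ION and 0.0263% to 0.0320% in sham, with 3 of 6 called higher with the block. Its members miR-142-3p, miR-142-5p, miR-150-5p, miR-155-5p and miR-223-3p also stand in the list of immune-tuning miRNAs, as does the neuronal miR-124-3p. The calls of miR-142-3p, miR-155-5p and miR-124-3p are thus the same calls as those given there. Skeletal muscle miRNAs held 0.352% to 0.815% in CCI-ION and 0.551% to 1.03% in sham, with 2 of 5 called lower with the block. Their source in these samples was not tested. Myelinating glia markers held 0.517% to 0.577% and 0.601% to 0.663%, with 0 of 3 tested called by edgeR, and erythroid markers 0.0394% to 0.0841% and 0.0277% to 0.0817%, with 0 of 4 called, in CCI-ION and in sham. Without both libraries numbered 3 the block called 0 markers of any of these lists, where 1.07% of all tested miRNAs were called. Without both numbered 2 it called 2 of 6 neuronal, 0 of 6 leukocyte and 3 of 5 muscle markers, where 6.68% of all were. Without both numbered 1 it called 3 of 6 neuronal, 3 of 6 leukocyte and 2 of 5 muscle markers, where 9.93% of all were. None of these markers was at 0 in all libraries. In whole ganglia fewer cells of a type and less RNA per cell cannot be told apart, and the part of these shifts in the miR-181 values was not tested.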

How the data were processed

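The sample titles gave each library's group and replicate number. No label states that the libraries came from different animals, so the tests rest on the spread between these libraries, which may be technical. The authors deposited raw counts for 650 mature miRNAs and RPM values per library. cutadapt 1.14, Bowtie 1.1.1 and the build rn6 are named, per the submitters' processing notes. The sources used here name neither the read counter nor the miRNA annotation. RPM as deposited was whole reads times 1 constant per library (100% of values within 0.01 read), and what the total behind it counts is not stated.

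Counts were tested with edgeR 4.0.16 in R 4.3.3 (TMM factors, filterByExpr, robust quasi-likelihood F test), which kept 463 miRNAs and left out 187, among them 3 of the 10 miR-181 members. SE is the absolute log2 fold change over the square root of F, and intervals are 95%. DESeq2 1.42.0 and limma-voom (limma 3.58.1) were alternatives. Same-numbered libraries correlated at 0.664, 0.591 and 0.457 in their deviations from group means (other combinations -0.614 to 0.166), so the numbers were treated as pairing the libraries. Because each group was centred on its mean, a positive value in a combination lowers others, so the contrast between combinations is partly arithmetic. The sources used here do not say what a number stands for. The block left 2 residual degrees of freedom, with a median of 54.5 prior degrees of freedom borrowed across miRNAs, against 3.3 on group alone. Libraries of 1 group differed by more than sampling noise in every combination (chi-square per degree of freedom 164.6 to 732).

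Named miRNAs were all miR-181 members, the 3 nearest in pattern to miR-181a-5p and to miR-181c-5p, and the called members of the list of immune-tuning miRNAs. Members and lists were chosen with earlier results of these data known. The match to RefSeq used sequences and names only.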

Additional observations from a re-analysis of the deposited data

How the results depend on the processing

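Over 25 other settings of the fit, the number of called miR-181 members stayed at 0 in 22. It was 4 with the replicate block and scaling to the totals behind the RPM, and there 5 without both libraries numbered 1 and 1 without both numbered 2 (settings added after seeing the data). Calls over all miRNAs, 3 on group alone, came to 54 with the replicate block, 44 with the block in DESeq2, 56 with the block in limma-voom, 60 with the block and upper quartile factors, 158 with the block and RPM totals (125, 129 and 12 without both libraries numbered 1, 2 or 3), 6 with RPM totals, 6 without the filter and 9 with DESeq2. Leaving out 1 library gave 1 to 7 calls. Under the block, leaving out both libraries numbered 1, 2 or 3 gave 45, 31 or 5. With near-identical 5p members summed, a setting added after seeing the data under the block, it gave 54. The block itself changed no call of a member with TMM factors.

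Directions of the uncalled differences were unstable. With RPM totals the log2 fold change was -0.31 for miR-181a-5p, -0.27 for miR-181b-5p and -0.24 for miR-181d-5p, and with the block -0.35, -0.31 and -0.26. With the block and RPM totals, leaving out both libraries numbered 1, 2 or 3 gave -0.558, -0.227 and -0.254 for miR-181a-5p, -0.467, -0.147 and -0.325 for miR-181b-5p, and -0.374, -0.130 and -0.289 for miR-181d-5p. Without the filter miR-181a-5p was at -0.0073. Summed, miR-181a-5p and miR-181c-5p were at 0.0272, and at -0.0023 with the block. Under the block, miR-181a-5p was at -0.147 and miR-181b-5p at -0.055 without both libraries numbered 1, and miR-181a-1-3p at 0.0129 without both numbered 3. Leaving out 1 library moved miR-181a-5p between -0.24 and 0.17, miR-181b-5p between -0.21 and 0.22, miR-181d-5p between -0.15 and 0.28, miR-181c-5p between -0.303 and 0.0407, and miR-181a-1-3p between -0.189 and -0.0062. The log2 ratio of miR-181a-5p over miR-181a-1-3p moved between -0.12 and 0.25, over miR-181a-2-3p between -0.26 and 1.20, and that of miR-181c-5p over miR-181c-3p between -0.0822 and 0.151, while adding 0.5 to each count turned none of the 6 ratios. The causes were not tested. miR-181b-1-3p and miR-181c-3p were negative in every setting run. Depth limits miR-181b-1-3p, at 13 to 44 reads, and the 3 untested strands, at 0 to 12 reads.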
